A study of Mus musculus with 9 samples.

Results

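The genes described here are 5 Toll-like receptors (Tlr2, Tlr3, Tlr4, Tlr7 and Tlr9), the co-receptor Cd14 and the adaptor Myd88, in cultured mouse macrophages. They were chosen by name, through the UniGene cluster numbers Mm.87596 (Tlr2), Mm.33874 (Tlr3), Mm.38049 (Tlr4), Mm.23979 (Tlr7), Mm.44889 (Tlr9), Mm.3460 (Cd14) and Mm.213003 (Myd88). All 7 numbers were found, each with 1 probe set, among 17810 clusters on the array. The pairing of numbers with symbols came with the choice of genes. It could not be checked against an annotation here, since the gene table used listed 0 of the array's clusters.

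All groups started from bone marrow of C57BL/6 mice, cultured with 30 ng/ml macrophage colony-stimulating factor, and from day 4 they were kept for 3 days in stimulation medium. The first group received medium conditioned by B16F1, a mouse melanoma line, together with the synthetic glucocorticoid dexamethasone at 5e-07 M and with interleukin 4 at 10 ng/ml (cmB16F1+dexa+IL4, called the combination). The second received dexamethasone and interleukin 4 at the same doses in fresh medium (dexa+IL4), and the third received conditioned medium alone (cmB16F1). Each group had 3 Affymetrix arrays, and every value below is on the log2 scale of the deposited probe-set table, normalized before deposit. No array of unstimulated cells was used here, so each group is described only against the other groups. The labels do not say whether the 3 arrays of a group came from separate mice or cultures, so p-values measure the spread between these arrays, which may be technical.

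Toll-like receptors are membrane proteins that recognise molecules of microbes and, in some settings, of damaged cells. Tlr2 and Tlr4 sit at the cell surface, where Tlr2 binds bacterial lipoproteins and Tlr4 binds lipopolysaccharide, which Cd14 hands over to it. Tlr3, Tlr7 and Tlr9 sit in endosomes and recognise nucleic acids. All of these receptors except Tlr3 signal through Myd88, which leads to activation of NF-kB and of inflammatory genes, and macrophages are a main site of this response.

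In these cells Cd14 and Tlr2 had by far the widest range between groups. Both were highest in melanoma medium alone, and both were much lower where dexamethasone and interleukin 4 were present. Where conditioned medium was added to dexamethasone and interleukin 4, Cd14 was 1.88-fold higher than without it, while the difference in Tlr2 did not pass the test. Tlr4 ran the other way and was 1.59-fold higher in the combination than in melanoma medium alone. Myd88, Tlr3 and Tlr7 moved by smaller amounts, and no difference in Tlr9 passed.

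Promoter sequence is shown for the genes that were lower in the combination and in dexa+IL4 than in cmB16F1 and had an entry in the RefSeq promoter table of GRCm38.p6 (Tlr2, Tlr3 and Myd88), and for Tlr9 as the gene with the narrowest range. Each line gives the 250 bases before the annotated start, 5′ to 3′ on the gene's strand. Capitals mark matches, on either strand, to the NF-kB consensus or to the interferon-stimulated response element, searched as GAAA and GAAA with any 2 bases between them. The NF-kB consensus was searched as GGG, a purine, any 2 bases, 2 pyrimidines and CC.
Tlr2, chr3:83841609-83841858, minus strand: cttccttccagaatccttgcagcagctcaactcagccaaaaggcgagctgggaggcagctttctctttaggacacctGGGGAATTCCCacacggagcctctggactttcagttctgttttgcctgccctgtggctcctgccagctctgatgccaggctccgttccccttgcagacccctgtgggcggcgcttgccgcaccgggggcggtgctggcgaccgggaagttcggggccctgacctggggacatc
Tlr3, chr8:45410381-45410630, minus strand: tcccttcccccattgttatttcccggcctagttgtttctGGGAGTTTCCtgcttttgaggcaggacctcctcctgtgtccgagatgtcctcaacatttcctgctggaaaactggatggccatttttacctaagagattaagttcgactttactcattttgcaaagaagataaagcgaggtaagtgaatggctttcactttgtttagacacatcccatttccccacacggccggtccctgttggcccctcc
Myd88, chr9:119340019-119340268, minus strand: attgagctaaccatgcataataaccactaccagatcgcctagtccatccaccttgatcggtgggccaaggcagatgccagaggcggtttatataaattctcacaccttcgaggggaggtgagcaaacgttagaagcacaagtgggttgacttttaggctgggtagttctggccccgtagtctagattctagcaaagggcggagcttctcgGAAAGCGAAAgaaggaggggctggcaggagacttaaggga
Tlr9, chr9:106222348-106222597, plus strand: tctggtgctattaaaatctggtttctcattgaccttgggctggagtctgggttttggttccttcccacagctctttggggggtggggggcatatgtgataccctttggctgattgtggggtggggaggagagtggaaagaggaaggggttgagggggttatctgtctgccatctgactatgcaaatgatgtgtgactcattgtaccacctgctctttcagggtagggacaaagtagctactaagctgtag
In these windows the NF-kB consensus matched in Tlr2, where overlapping matches make up the stretch in capitals, and in Tlr3. It matches in 7.25% of all 32851 promoter windows of this length. The interferon element matched in Myd88 and is found in 2.98% of all windows. The STAT6 motif, searched as TTC and GAA with any 4 bases between them, and the glucocorticoid half-site AGAACA, found in 5.85% and 16.1% of all windows, had no match in these 4, and neither did the full glucocorticoid element, searched as AGAACA and TGTTCT with any 3 bases between them and found in 0.00913% of all windows. The Tlr9 window had no CG dinucleotide at all, against 11 in Tlr2, 9 in Myd88 and 6 in Tlr3, and a median of 6 over all windows. These matches describe letters in the windows and say nothing of binding.

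The arrays were closely alike in scale, with medians from 7.20 to 7.25. The array's 27 bacterial poly-A control sets ranged from 6.09 to 7.00 and served as a mark for the low end. The highest value of any array was 14.2. In bulk RNA, fewer cells of a type and less RNA per cell cannot be told apart, which applies to every difference below. Marker genes of macrophages and of other cell types were not looked up, since the clusters carry no names.

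**Figure D1:**
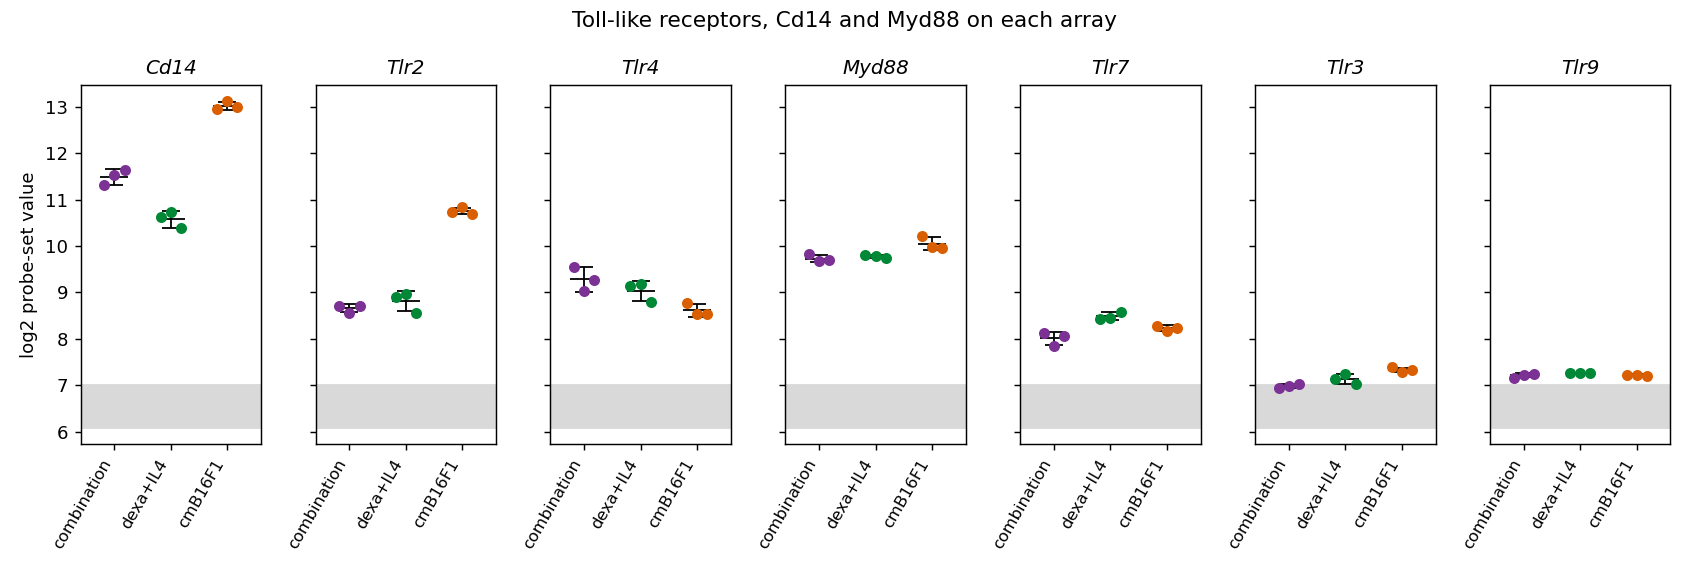
Log2 probe-set value (vertical axis) of each gene on each array, by group; points are arrays, black bars the mean and SD of 3 arrays, and the grey band spans the bacterial poly-A control sets (6.09 to 7.00). Cd14 and Tlr2 are highest on the 3 cmB16F1 arrays, and Tlr3 and Tlr9 lie at or just above the band in every group.

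Cd14, the surface protein that delivers lipopolysaccharide to Tlr4, had log2 values of 11.31, 11.52 and 11.64 in the combination, 10.61, 10.74 and 10.38 in dexa+IL4, and 12.95, 13.12 and 12.99 in cmB16F1. No array of one group overlapped with another group, and the order was dexa+IL4 lowest, the combination in between and cmB16F1 highest. The combination mean lay 37.4% of the distance between the single arms, counted from dexa+IL4, with 29.8% to 43.6% for its single arrays.

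Against dexa+IL4, Cd14 in the combination rose by 0.91 (SE 0.11, limma with Benjamini-Hochberg adjusted p = 3.856e-04), with means of 11.49 ± 0.17 and 10.58 ± 0.18 (SD, n = 3 each). Against cmB16F1, at 13.02 ± 0.09, it fell by 1.53 (SE 0.11, limma adjusted p = 9.639e-06), which is 2.88-fold lower in the combination. In dexa+IL4 it was 5.43-fold lower than in cmB16F1 (log2 difference -2.44, limma adjusted p = 2.796e-07). By size these differences ranked 249, 97 and 41 among 17810 clusters, and each passed the test under all 16 alternatives.

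Tlr2, the receptor for bacterial lipoproteins, had log2 values of 8.71, 8.56 and 8.71 in the combination, 8.90, 8.96 and 8.56 in dexa+IL4, and 10.73, 10.84 and 10.70 in cmB16F1. All 3 cmB16F1 arrays stood above all others, while the arrays of the combination and dexa+IL4 overlapped. Against cmB16F1, at 10.76 ± 0.07, the combination, at 8.66 ± 0.09 (SD, n = 3 each), was 4.27-fold lower. That log2 difference was -2.09 (SE 0.10, limma adjusted p = 6.490e-07) and ranked 43 among all clusters. In dexa+IL4, at 8.81 ± 0.21, Tlr2 was 3.86-fold lower than in cmB16F1 (log2 difference -1.95, limma adjusted p = 8.193e-07).

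The combination and dexa+IL4 differed in Tlr2 by -0.15 on the log2 scale (95% confidence interval -0.37 to 0.08; limma adjusted p = 0.368). The dexa+IL4 replicate 3 array was the lowest of its group, and without it the difference was -0.27 and passed the test (limma adjusted p = 0.0499, in a range from 0.0297 to 0.740 over 16 alternatives). It also passed with arrays scaled to their hybridization controls, which moved the median of all clusters to -0.26. Between these groups the Cd14 change exceeded the Tlr2 change by 1.06 on the log2 scale, a difference taken within each array and so unaffected by its scaling (exact two-sided permutation p = 0.1, the smallest that 3 arrays against 3 allow, and 0.109 after Benjamini-Hochberg adjustment over 12 such relations).

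Tlr4, the lipopolysaccharide receptor, had log2 values of 9.55, 9.03 and 9.27 in the combination, 9.13, 9.19 and 8.79 in dexa+IL4, and 8.78, 8.54 and 8.53 in cmB16F1. The cmB16F1 arrays were below all others, and the combination and dexa+IL4 overlapped. The combination, at 9.28 ± 0.26, rose by 0.67 against cmB16F1, at 8.61 ± 0.14 (SE 0.14, SD over n = 3 each, limma adjusted p = 0.0103), and this call held under all 16 alternatives. The direction was opposite to that of Cd14, the protein that feeds it, and to that of Tlr2. Between the same groups the Tlr2 change minus the Tlr4 change was -2.76 log2 units (exact two-sided permutation p = 0.1, the smallest possible, adjusted 0.109).

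In dexa+IL4, at 9.04 ± 0.21 (SD, n = 3), Tlr4 differed from cmB16F1 by 0.42 (95% confidence interval 0.11 to 0.74), and the test was narrowly missed (limma adjusted p = 0.0544). The call was gained under 8 of 16 alternatives, among them leaving out dexa+IL4 replicate 3 (0.54, limma adjusted p = 0.0268) or cmB16F1 replicate 1 (0.50, adjusted p = 0.0464), in a range from 0.0115 to 0.171. The combination and dexa+IL4 differed by 0.25, with an interval from -0.07 to 0.56 (limma adjusted p = 0.281), and by -0.01 with arrays scaled to their hybridization controls. That scaling moved the median of all clusters to -0.26 between these groups.

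Myd88, the adaptor shared by most Toll-like receptors, had log2 values of 9.82, 9.67 and 9.69 in the combination, 9.80, 9.78 and 9.75 in dexa+IL4, and 10.21, 9.98 and 9.95 in cmB16F1. The cmB16F1 arrays lay above all others and the other groups overlapped. Myd88 fell by 0.32 in the combination, at 9.73 ± 0.08, against cmB16F1, at 10.05 ± 0.14 (SE 0.08, SD over n = 3 each, limma adjusted p = 0.0179), or 1.25-fold. The Tlr2 change minus the Myd88 change was -1.77 log2 units between these groups (exact two-sided permutation p = 0.1, adjusted 0.109).

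In dexa+IL4, at 9.77 ± 0.02 (SD, n = 3), Myd88 was 1.21-fold lower than in cmB16F1 (log2 difference -0.27, limma adjusted p = 0.0256). The combination and dexa+IL4 differed by -0.05, with an interval from -0.22 to 0.12 (limma adjusted p = 0.731). Both calls against cmB16F1 were missed in some fits with 1 array left out, which have fewer arrays and so less power. That of the combination was missed without its replicate 2 (-0.30, limma adjusted p = 0.0596) or 3 (-0.31, adjusted p = 0.0541) and in a fit of those groups alone, in a range from 0.00432 to 0.0628 over 16 alternatives. That of dexa+IL4 was missed without its replicate 1, 2 or 3 or without cmB16F1 replicate 1, with differences from -0.29 to -0.19 (limma adjusted p from 0.0623 to 0.0803), and with scaling to the hybridization controls (0.527).

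Tlr7, the endosomal receptor for single-stranded RNA, had log2 values of 8.12, 7.85 and 8.05 in the combination, 8.42, 8.45 and 8.58 in dexa+IL4, and 8.28, 8.16 and 8.24 in cmB16F1. No groups overlapped, and the order was the combination lowest, cmB16F1 next and dexa+IL4 highest. This order differs from that of every other gene described here, except that of the Tlr9 means, whose differences did not pass. The combination, at 8.01 ± 0.14, was 1.39-fold lower than dexa+IL4, at 8.48 ± 0.09 (SD, n = 3 each; log2 difference -0.47, SE 0.07, limma adjusted p = 0.00195), and this call held under all 16 alternatives.

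Against cmB16F1, at 8.23 ± 0.06 (SD, n = 3), Tlr7 in the combination differed by -0.22, with an interval from -0.38 to -0.05, and missed the test (limma adjusted p = 0.0865). With the replicate number as a block, taken to pair the arrays of these groups, the same difference passed (limma adjusted p = 0.0367, in a range from 0.0223 to 0.220 over 16 alternatives). The difference also passed without combination replicate 1 (-0.27, limma adjusted p = 0.0497). The dexa+IL4 level was 1.19-fold above cmB16F1 (log2 difference 0.26, limma adjusted p = 0.0315). That call was missed under 6 of 16 alternatives: without any 1 of the dexa+IL4 arrays, or without replicate 2 or 3 of cmB16F1, with differences from 0.21 to 0.29 (limma adjusted p from 0.0510 to 0.115), and with scaling to the hybridization controls (0.217).

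Tlr3, the endosomal receptor for double-stranded RNA, which signals without Myd88, had log2 values of 6.94, 6.99 and 7.02 in the combination, 7.13, 7.24 and 7.04 in dexa+IL4, and 7.38, 7.28 and 7.33 in cmB16F1. No groups overlapped, and the order was the combination lowest and cmB16F1 highest. The values lay at the low end of the scale. Combination replicate 1 was below the highest poly-A control of its own array, and the other arrays were at most 0.49 above theirs, so that the sizes of the differences may be compressed.

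The combination, at 6.98 ± 0.04, was 1.27-fold lower in Tlr3 than cmB16F1, at 7.33 ± 0.05 (SD, n = 3 each; log2 difference -0.35, limma adjusted p = 0.00129), under all 16 alternatives. In dexa+IL4, at 7.14 ± 0.10, Tlr3 was 1.15-fold lower than in cmB16F1 (log2 difference -0.20, limma adjusted p = 0.0194). This call was missed without replicate 1 (-0.19) or 3 (-0.15) of dexa+IL4 or replicate 1 of cmB16F1 (-0.17), with limma adjusted p from 0.0626 to 0.0715, and with scaling to the hybridization controls (0.703). The combination and dexa+IL4 differed by -0.15, with an interval from -0.27 to -0.04 (limma adjusted p = 0.0709). That difference passed without dexa+IL4 replicate 3 (-0.20, limma adjusted p = 0.0336) and under 3 rescalings of the arrays, in a range from 0.00854 to 0.216.

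Tlr9, the endosomal receptor for DNA with unmethylated CG dinucleotides, had log2 values of 7.17, 7.22 and 7.25 in the combination, 7.27, 7.26 and 7.27 in dexa+IL4, and 7.23, 7.23 and 7.20 in cmB16F1. Every array was 0.20 to 0.33 above the highest poly-A control of the same array, and the group means spanned only 0.05. The differences were -0.05 for the combination against dexa+IL4, with an interval from -0.13 to 0.02, and -0.005 against cmB16F1, with an interval from -0.08 to 0.07 (limma adjusted p = 0.322 and 0.955). The difference of dexa+IL4 against cmB16F1 was 0.05, with an interval from -0.03 to 0.12 (limma adjusted p = 0.328). The first of these passed with arrays scaled to their hybridization controls (-0.31, limma adjusted p = 0.0411, in a range up to 0.624 over 16 alternatives). That scaling moved the median of all clusters to -0.26 in the same comparison. At values so near the control range a difference may be compressed.

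**Figure D2:**
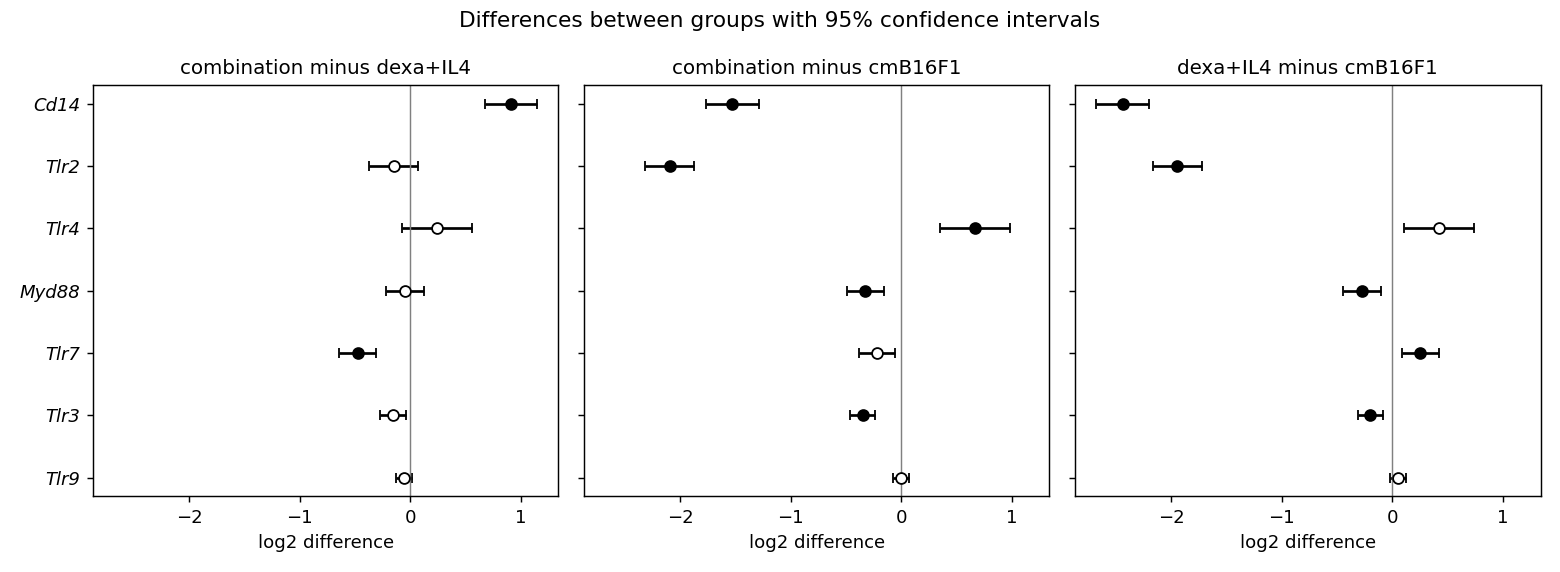
Log2 difference between groups (horizontal axis) for each gene, with bars for the limma 95% confidence interval; filled points have a Benjamini-Hochberg adjusted p under 0.05 and open points do not. Cd14 is above 0 in the left panel and far below 0 in the others, and Tlr4 lies on the opposite side of 0 from Cd14 and Tlr2 in the middle and right panels.

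Melanoma medium added to dexamethasone and interleukin 4 went with higher Cd14 and lower Tlr7, while 5 of the 7 genes did not pass. The count of 2 in 7 stands beside 17.9% of all clusters called in this comparison, 8.88% higher and 9% lower. With clusters not above the poly-A controls left out, the count stayed at 2 and stood beside 30.8% of the remaining clusters. The median log2 difference of the 7 genes was -0.05, against -0.003 over all clusters, and the median size was 0.15 against 0.07. Arrays did not overlap for 4 of the 7 genes, among them Tlr3 and Tlr9, which did not pass, against 36.1% of all clusters. Without dexa+IL4 replicate 3, 4 genes passed, Tlr2 and Tlr3 being added, beside 11.8% of all clusters.

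Dexamethasone and interleukin 4 added to melanoma medium went with lower Tlr2, Cd14, Tlr3 and Myd88 and higher Tlr4. Thus 5 of 7 genes passed, against 14.1% of all clusters, with 4 lower (7.57% of all clusters were called lower) and 1 higher (6.56% were called higher). The median log2 difference was -0.32, against 0.01 over all clusters, and the median size 0.35 against 0.06. Arrays did not overlap for 6 of the 7 genes, all but Tlr9, against 28.5% of all clusters. Of the 4 genes called lower, Tlr2 is a surface receptor, Tlr3 an endosomal receptor, Cd14 the co-receptor and Myd88 the adaptor. The other surface receptor, Tlr4, was higher, and the other endosomal receptors, Tlr7 and Tlr9, did not pass. The Tlr3 values lay near the poly-A controls. Dexamethasone and interleukin 4 were always given together, so their effects cannot be told apart in this comparison.

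The replicate numbers were taken to pair the arrays of these groups because their deviations from the group means correlated, though the labels do not say so. On that reading the differences can also be given number by number. As combination minus cmB16F1, Tlr2 differed by -2.02, -2.27 and -1.99 log2 units for numbers 1, 2 and 3, and Cd14 by -1.65, -1.59 and -1.34. Tlr4 was higher in the combination by 0.78, 0.49 and 0.74, and in both groups the highest Tlr4 value was that of replicate 1. Myd88 had its highest value on replicate 1 in both groups as well, and its differences, as combination minus cmB16F1, were -0.39, -0.31 and -0.27. For Tlr7 they were -0.16, -0.31 and -0.19, so that all pairs lay on the same side of 0, and for Tlr9 they were -0.06, -0.01 and 0.05.

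**Figure D3:**
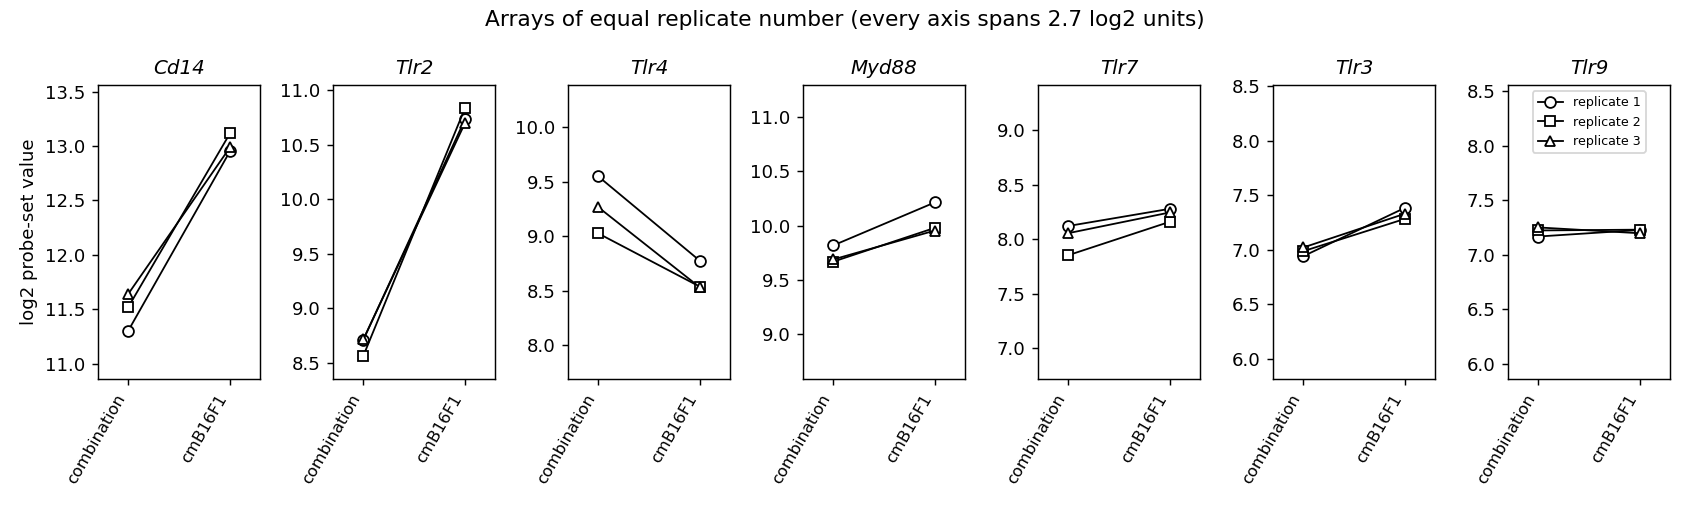
Log2 probe-set value of each gene in the combination and in cmB16F1, with a line joining arrays of equal replicate number; each vertical axis spans the same number of log2 units but starts at a different level. All 3 lines run the same way for every gene except Tlr9, upward to cmB16F1 for Cd14, Tlr2, Myd88, Tlr7 and Tlr3 and downward for Tlr4.

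Dexamethasone and interleukin 4 in fresh medium, set against melanoma medium alone, differ in dexamethasone, interleukin 4 and conditioned medium together. The effects of these agents cannot be told apart in this comparison. Cd14, Tlr2, Myd88 and Tlr3 were lower in dexa+IL4 and Tlr7 was higher, 5 of 7 genes against 25% of all clusters (4 lower, against 12.2%, and 1 higher, against 12.8%). The median log2 difference was -0.20, against 0.02 over all clusters. Arrays did not overlap in 7 of the 7 genes, against 44.3% of all clusters. These include Tlr4 and Tlr9, whose differences did not pass (limma adjusted p = 0.0544 and 0.328). With 1 dexa+IL4 array left out, 2 genes passed without replicate 1, beside 18.1% of all clusters, and 3 passed without replicate 2 or 3, beside 19% and 18.3%. The genes that passed in every one of these fits were Cd14 and Tlr2. The comparisons share arrays, so their values are given side by side and are not independent of each other.

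**Figure D4:**
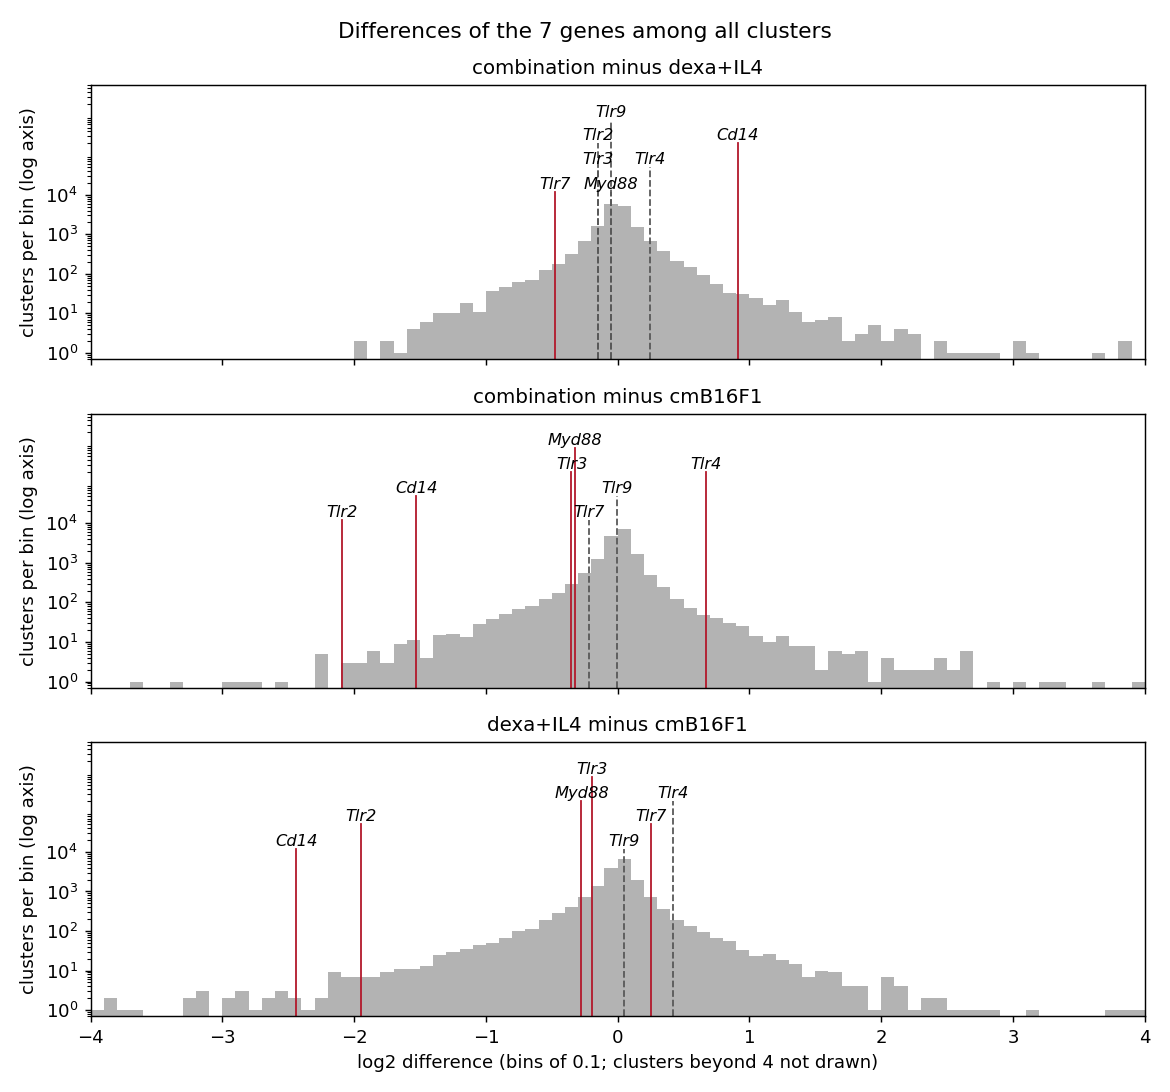
Number of clusters (log axis) by log2 difference in bins of 0.1, for the 3 comparisons; red solid lines mark genes with adjusted p under 0.05 and grey dashed lines the others. Tlr2 and Cd14 stand in the left tail in the middle and bottom panels, whereas Tlr9 stands in the centre of all 3.

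Clusters with a pattern like those of Cd14 and Tlr2, the genes with the widest ranges, were sought among 2334 clusters that varied between arrays and lay above the poly-A controls. The closest to Cd14 were Mm.34308 and Mm.29773, with Pearson correlations of 0.997 and 0.992 over 9 arrays. Mm.34308 averaged 8.04 ± 0.12 in the combination, 7.65 ± 0.06 in dexa+IL4 and 8.79 ± 0.05 in cmB16F1 (SD, n = 3 each). The closest to Tlr2 were Mm.391573 and Mm.246881, both with 0.992. Mm.391573 averaged 11.33 ± 0.07 in the combination, 11.39 ± 0.08 in dexa+IL4 and 12.15 ± 0.08 in cmB16F1. Such correlations mostly restate the 3 group means, since arrays of one group share their treatment, and 145 clusters had one over 0.95 with Cd14 and 117 with Tlr2.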

How the data were processed

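RNA of 9 macrophage samples was measured on 1-colour Affymetrix arrays, 1 per sample. The authors deposited 1 table on a log2 scale, already normalized between arrays. That scale is inferred from its range, 5.86 to 14.2. How background was corrected, arrays normalized and probe sets defined is not given in the sources used here. Of 17931 probe sets, 64 were controls. Where a cluster had a plus and a minus set (57 clusters, none of the genes described), the brighter was used.

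Groups were compared with limma 3.58.1 in R 4.3.3 (lmFit, eBayes with a mean-variance trend) on all 9 arrays, with group as the only term, no filter and Benjamini-Hochberg adjustment over 17829 features, that is 17810 clusters and 19 mouse control sets. An adjusted p under 0.05 counts as passing. The procedure was tested on simulated data. Alternatives covered other normalizations, variance models, array weights, fewer groups, a filter on dim clusters, the replicate number as a block and each array left out. The labels do not say what equal replicate numbers share. Deviations from the group means correlated across clusters, for equal numbers, at 0.617, 0.565 and 0.662 between the combination and cmB16F1, over the limit of 0.1 in each case, and were taken to pair these groups. For the other comparisons at least 1 correlation was below 0.1, and the effect of the block stands in the closing section alone.

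The genes and lists were chosen with earlier results of these data known. The text names the 7 genes and, for the 2 with the widest range of group means, the 2 clusters most correlated over all arrays, among clusters above the poly-A controls with an SD of at least 0.2. A list of further Toll-like receptor pathway genes and lists of cell type markers were not used, since no table named the clusters. Promoters of Cd14, Tlr4 and Tlr7 were not analysed here. Chromosome 18, where Cd14 lies, was left out when the windows of the genes were chosen.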

Additional observations from a re-analysis of the deposited data

How the results depend on the processing

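Each difference of the 7 genes was recomputed under 16 alternatives. Of the 336 values, 297 kept their direction and their side of the threshold, 18 lost the call, 18 gained it and 3 changed sign. The sign changes were of differences that did not pass: Tlr4 in the combination against dexa+IL4 (-0.0099 with scaling to the hybridization controls) and Tlr9 in the combination against cmB16F1 (0.018 without combination replicate 1 and 0.0013 without cmB16F1 replicate 2, in a leave-one-out range from -0.023 to 0.018). Scaling to the hybridization controls moved the median of all clusters to -0.26 in the combination against dexa+IL4, -0.20 against cmB16F1 and 0.06 for dexa+IL4 against cmB16F1. Under it 5 of the 7 genes passed in the first comparison, in place of 2, beside 39.9% of all clusters, and 3 in the last, in place of 5, beside 10.6%. Leaving out 1 array gave 2 to 4 genes in the first comparison, 4 to 6 in the second and 2 to 4 in the last, beside 11.5% to 18.8%, 10.9% to 12.6% and 18.1% to 22% of all clusters. With the replicate number as a block, 2, 6 and 6 genes passed, beside 23.3%, 17.1% and 29% of all clusters, the additions being Tlr7 in the combination against cmB16F1 and Tlr4 in dexa+IL4 against cmB16F1, where the numbers were not taken to pair the arrays. The block changed no other call of these genes. With clusters not above the poly-A controls left out, 2, 5 and 6 genes passed, beside 30.8%, 23.3% and 39.6% of the remaining clusters. The calls of Cd14 in all 3 comparisons, of Tlr2 and Tlr3 against cmB16F1 in the combination, of Tlr2 in dexa+IL4 against cmB16F1, of Tlr4 in the combination against cmB16F1 and of Tlr7 in the combination against dexa+IL4 held under all 16. Tlr3 and Tlr9 lay too near the poly-A controls for a firm size of difference. The causes of the changes were not tested.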
